A study of Mus musculus with 6 samples.

Results

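The oligodendrocyte and myelin genes described here are 33 genes of the mouse prefrontal cortex, picked by gene symbol from the 54429 rows of the count tables. They comprise structural proteins of the myelin sheath, enzymes of myelin lipid and metabolite synthesis, transcription factors of the oligodendrocyte lineage, and signalling, cytoskeletal and transport proteins of these cells. All 33 were found and all 33 passed the filter on low counts. The tissue was labelled as bulk lysate of prefrontal cortex from C57BL6/J mice, while the design text gives a C57BL/6 x C3H cross aged 6 to 8 weeks. The animals of 1 group were injected with an AAV9 virus carrying a short hairpin RNA (shRNA) against Kmt5b, the enzyme that methylates lysine 20 of histone H4 (3 libraries, called Kmt5b shRNA). The animals of the other group were injected with an AAV9 virus carrying GFP (3 libraries, called GFP). The cells that the virus reached and the promoter that drove it were not given in the sources used here. The design text speaks of 3 shRNA mice and 2 control mice, so p-values measure only the spread between these libraries, part of which may be technical.

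Oligodendrocytes arise from precursor cells, pass through a newly formed premyelinating state, and then wrap axons with compacted membrane. Olig1, Olig2, Sox10 and Nkx2-2 are transcription factors present through much of this lineage, while Myrf switches on the myelin program in postmitotic cells, and Mbp, Mog and Mag encode proteins of the finished sheath. SOX factors and MYRF bind short DNA motifs near many myelin genes.

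RefSeq promoters of build GRCm38.p6 were matched for 23 of the 33 genes, and the 250 bases before the transcription start were searched on both strands. The SOX motif, spelled ACAAAG or ACAATG, was present in 10 of 23 (43.5%), against 25.2% of all 32851 promoters. The MYRF motif CTGGCAC was present in 2 of 23 (8.70%), against 4.19% of all. The E-box CAGCTG, bound by OLIG factors among others, was present in 3 of 23 (13.04%), against 4271 of all 32851. No searched motif contains another. Upstream sequences are shown for 4 sheath genes: Mobp, which held the most SOX matches, Mag and Cnp, which held the MYRF motif, and Mog, whose fold change was the lowest of the 33 and whose window held none of these motifs. Bases inside an annotated transcript were left out of the sequences shown but not of the counts above. The 10 genes counted with a SOX motif thus include Olig2, whose window held no match once such bases were left out. Capitals mark motif matches, which read CTTTGT where ACAAAG lies on the other strand. The sequences run 5′ to 3′ on the gene's strand, at chr9:120149492-120149706 (+) for Mobp, chr7:30914874-30915113 (−) for Mag, chr11:100574689-100574903 (+) for Cnp and chr17:37023399-37023648 (−) for Mog.
Mobp: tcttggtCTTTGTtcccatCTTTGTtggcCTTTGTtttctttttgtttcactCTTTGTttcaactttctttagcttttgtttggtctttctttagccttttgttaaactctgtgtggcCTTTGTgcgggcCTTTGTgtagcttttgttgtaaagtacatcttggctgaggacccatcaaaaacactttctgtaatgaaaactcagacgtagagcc
Mag: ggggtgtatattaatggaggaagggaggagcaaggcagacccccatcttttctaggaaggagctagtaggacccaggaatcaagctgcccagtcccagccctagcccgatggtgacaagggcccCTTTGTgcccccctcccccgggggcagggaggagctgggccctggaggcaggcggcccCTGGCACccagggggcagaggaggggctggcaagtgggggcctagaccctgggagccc
Cnp: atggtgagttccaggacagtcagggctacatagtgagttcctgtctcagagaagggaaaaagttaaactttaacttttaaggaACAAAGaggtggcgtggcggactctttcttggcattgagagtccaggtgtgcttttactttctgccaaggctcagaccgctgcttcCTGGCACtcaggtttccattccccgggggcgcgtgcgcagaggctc
Mog: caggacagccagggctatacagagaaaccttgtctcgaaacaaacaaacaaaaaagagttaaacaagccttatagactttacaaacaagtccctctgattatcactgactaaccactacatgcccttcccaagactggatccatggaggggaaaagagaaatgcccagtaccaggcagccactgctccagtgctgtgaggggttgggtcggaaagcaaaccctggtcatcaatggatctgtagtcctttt

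Total counts were 57486203, 48828638 and 54254006 in Kmt5b shRNA replicates 1 to 3, against 69869079, 29490771 and 74723284 in GFP replicates 1 to 3. Kmt5b itself stood at 68.5, 80.3 and 63.9 CPM (read counts scaled to TMM library sizes) in Kmt5b shRNA libraries and at 86.5, 79.7 and 80.9 CPM in GFP libraries. Kmt5b shRNA replicate 2 thus lay within the GFP range, and the difference did not pass edgeR's quasi-likelihood test (adjusted p = 0.303, log2 fold change -0.22 with an SE of 0.10). The level of Kmt5b therefore does not check the labels, and every direction given here rests on the groups as labelled. Processed pseudogenes took 0.271% to 0.282% of counts in Kmt5b shRNA libraries and 1.17% to 1.20% in GFP libraries, and of 2255 tested 1015 were lower and 39 higher (median log2 fold change -1.11). The sources name different aligners and do not say whether both groups were processed alike, so processing and treatment cannot be told apart. Calls were therefore also read in a fit of genes sharing no sequence with others. Kmt5b shRNA replicate 1 stood apart for the oligodendrocyte and myelin genes: it was the lowest of the 6 libraries for 29 of the 33 (87.9%), against 13.95% of all 24419 genes tested.

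Across the 33 genes, Olig2 rose and Car2 fell, and the other 31 did not pass the test. The call rule was an adjusted p under 0.05 in edgeR's quasi-likelihood test with Benjamini-Hochberg adjustment over 24419 genes. These 24419 include the 2255 processed pseudogenes, so both calls depend on that background. In the edgeR fit of genes sharing no sequence, neither gene passed, at nearly the same log2 fold changes. These were 0.54 for Olig2 (adjusted p = 0.0840) and -0.43 for Car2 (adjusted p = 0.0797). The 1 call in each direction is 3.03% of the genes, against 2.77% of all genes called higher and 5.69% called lower. Among the 22164 genes other than processed pseudogenes, 2.87% were higher and 1.69% lower by the same adjusted p, without a new fit. The shares over all genes given here include the pseudogenes. With 1 gene called each way, the shares of the 33 are not set apart from this background. The fold changes of 30 of the 33 (90.9%) were below 0, against 52.7% of all genes, and their median log2 fold change was -0.40, against -0.02 over all genes. At an unadjusted p under 0.05 there were 11 of 33 (33.3%), against 17.4% of all genes. The groups did not overlap in CPM, with Kmt5b shRNA lower, for Mog, Ermn, Gpr37, Aspa, Car2 and St18 (18.2%, against 12.7% of all genes), and with Kmt5b shRNA higher for Olig2 alone (3.03%, against 9.84%). In bulk tissue, fewer cells of a type and less RNA per cell cannot be told apart.

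**Figure D1:**
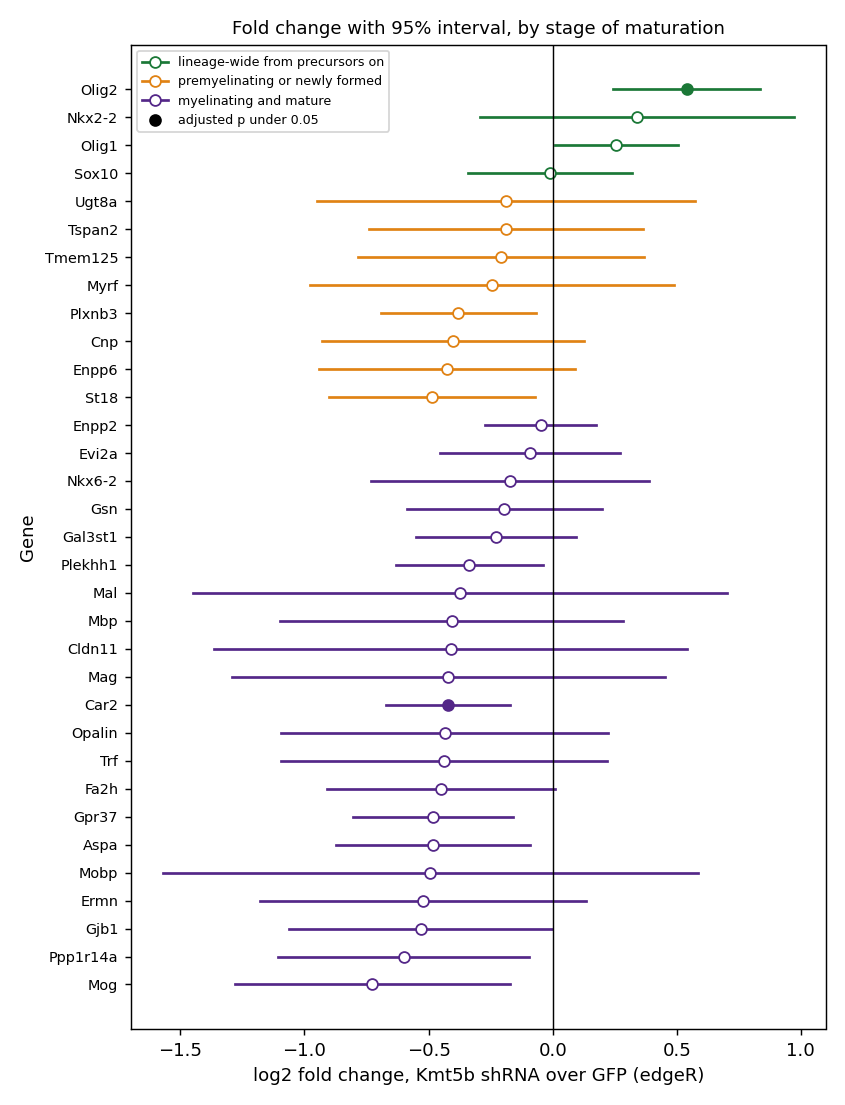
Log2 fold change of Kmt5b shRNA over GFP for each of the 33 genes (x axis), with 95% intervals from edgeR, grouped by stage of maturation and ordered by fold change within a stage. Filled points pass an adjusted p of 0.05: Olig2 lies at 0.54 and Car2 at -0.42, and 30 of the 33 points lie below 0.

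The structural and adhesion proteins of the myelin membrane (12 genes) all had fold changes below 0, with a median of -0.42 on the log2 scale, and none passed the test. Mbp, the basic protein that compacts the sheath, stood at 591, 1011 and 1217 CPM in Kmt5b shRNA libraries and at 1546, 1097 and 1093 CPM in GFP libraries. The groups overlapped, since Kmt5b shRNA replicate 3 lay above GFP replicates 2 and 3, and the log2 fold change of -0.41 ± 0.29 (± SE here and for the other genes) did not pass (edgeR adjusted p = 0.590). Mog, a glycoprotein of the outer sheath surface, stood at 15.2, 25.6 and 30.5 CPM in Kmt5b shRNA libraries and at 41.8, 34.5 and 41.4 CPM in GFP libraries. Every Kmt5b shRNA library lay below every GFP library, yet with a spread of 7.81 CPM (SD, n = 3) around the Kmt5b shRNA mean of 23.8 CPM the log2 fold change of -0.73 ± 0.24 did not pass (edgeR adjusted p = 0.142). Mag, an adhesion molecule facing the axon, stood at 58.7, 95.2 and 134.6 CPM in Kmt5b shRNA libraries and at 149.1, 103.3 and 133.3 CPM in GFP libraries, with overlap. Mobp, a basic protein of compact myelin, stood at 178.2, 394.6 and 435.7 CPM in Kmt5b shRNA libraries and at 610.1, 393.3 and 415.6 CPM in GFP libraries. For Mobp, whose window holds the SOX matches above, both Kmt5b shRNA replicates 2 and 3 lay among the GFP values and replicate 1 lay far below them.

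Cnp, a phosphodiesterase of non-compact myelin, stood at 128.8, 206.2 and 229.6 CPM in Kmt5b shRNA libraries and at 292.1, 201.4 and 252.6 CPM in GFP libraries. Cldn11, which forms the tight junctions of the sheath, stood at 44.2, 75.5 and 97.5 CPM in Kmt5b shRNA libraries and at 121.1, 70.7 and 96.4 CPM in GFP libraries. Both genes showed the same arrangement, with Kmt5b shRNA replicate 1 at the bottom and GFP replicate 1 at the top. Ermn, a cytoskeletal protein of mature oligodendrocytes, stood at 17.9, 34.9 and 35.6 CPM in Kmt5b shRNA libraries and at 48.1, 37.3 and 41.1 CPM in GFP libraries, without overlap, but its log2 fold change of -0.52 ± 0.27 did not pass (edgeR adjusted p = 0.424). Mal, a proteolipid of myelin membranes, had the largest ratio of highest to lowest GFP library among the 33, at 74.7, 150.8 and 159.5 CPM in Kmt5b shRNA libraries and at 227.8, 121.3 and 149.3 CPM in GFP libraries. Opalin, a transmembrane glycoprotein of oligodendrocytes, averaged 10.4 ± 3.95 CPM in Kmt5b shRNA libraries and 14.1 ± 2.52 CPM in GFP libraries (SD, n = 3 each). Gjb1, the gap junction protein connexin 32, averaged 5.44 ± 2.13 CPM in Kmt5b shRNA libraries and 7.90 ± 1.22 CPM in GFP libraries. Tspan2, a tetraspanin, averaged 81.8 ± 23.0 CPM in Kmt5b shRNA libraries and 93.2 ± 17.3 CPM in GFP libraries. Plxnb3, a semaphorin receptor, averaged 18.0 ± 3.24 CPM in Kmt5b shRNA libraries and 23.4 ± 3.90 CPM in GFP libraries. These 4 genes overlapped between the groups.

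**Figure D2:**
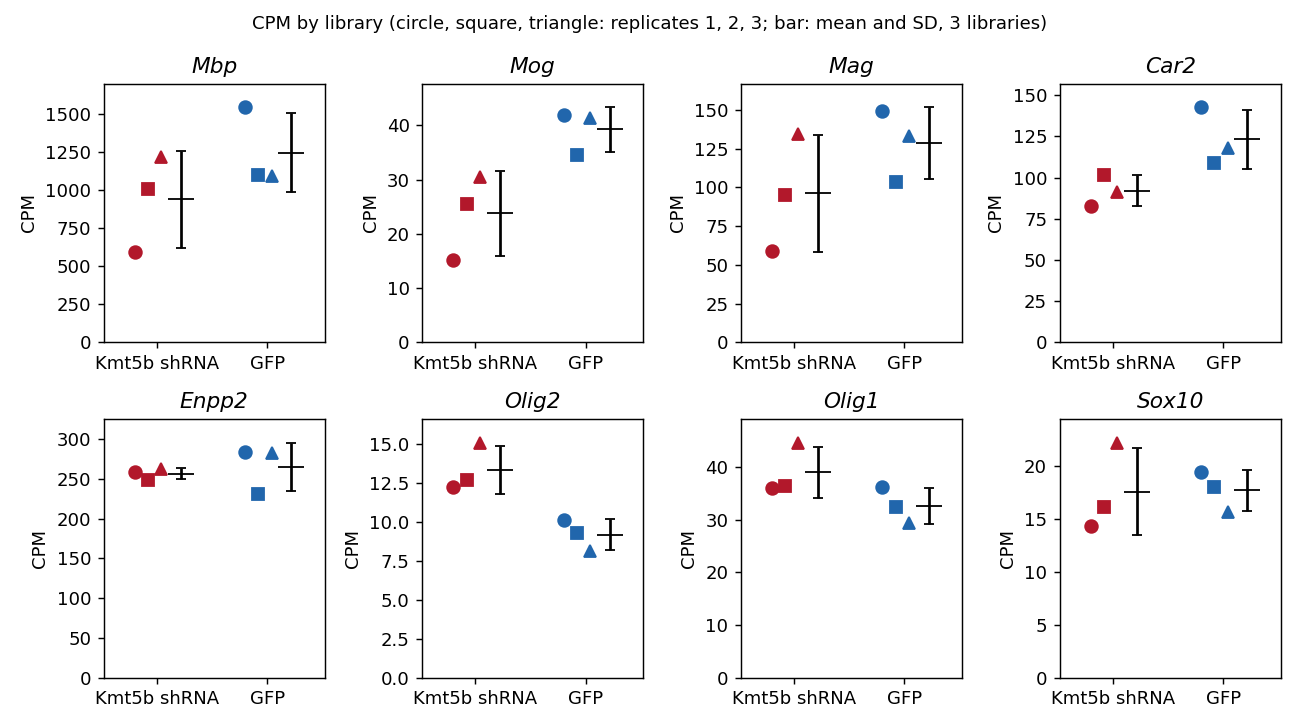
CPM (y axis, from 0) of 8 genes in each library, with Kmt5b shRNA in red and GFP in blue, replicates 1 to 3 as circle, square and triangle, and the mean and SD of 3 libraries as a bar. The groups do not overlap for Mog, Car2 and Olig2; Kmt5b shRNA replicate 1 is the lowest point for Mbp, Mog, Mag, Car2 and Sox10.

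Among the lipid and metabolite enzymes (7 genes), Car2 fell and the other 6 did not pass the test, with a median log2 fold change of -0.42 and none above 0. Car2, a carbonic anhydrase of oligodendrocytes at chromosome 3, 14886273 to 14900770 (GRCm38), stood at 83.0, 101.8 and 91.2 CPM in Kmt5b shRNA libraries and at 142.8, 108.6 and 118.1 CPM in GFP libraries. All Kmt5b shRNA libraries lay below all GFP libraries. The fold was 0.747 (95% interval 0.628 to 0.887; log2 fold change -0.42 ± 0.12, edgeR adjusted p = 0.0338). The Car2 call was lost without Kmt5b shRNA replicate 1 (adjusted p = 0.223), Kmt5b shRNA replicate 3 (0.0978), GFP replicate 1 (0.118) or GFP replicate 3 (0.0600), and among genes sharing no sequence with other genes (0.0797, with a log2 fold change of -0.43).

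Enpp2, which makes lysophosphatidic acid and is also abundant in choroid plexus, stood at 259, 249 and 262 CPM in Kmt5b shRNA libraries and at 283, 231 and 282 CPM in GFP libraries. Its Kmt5b shRNA libraries differed by 1.06-fold from lowest to highest, the narrowest of the 33, and its log2 fold change was -0.05 ± 0.10 (95% interval -0.27 to 0.18). Aspa, which splits N-acetylaspartate, stood at 7.96, 14.33 and 11.9 CPM in Kmt5b shRNA libraries and at 17.5, 14.35 and 15.7 CPM in GFP libraries, without overlap by a narrow margin. Ugt8a, which makes galactocerebroside, stood at 35.2, 60.3 and 68.6 CPM in Kmt5b shRNA libraries and at 80.0, 51.4 and 55.4 CPM in GFP libraries. Gal3st1, which makes sulfatide, averaged 7.99 ± 1.20 CPM in Kmt5b shRNA libraries and 9.35 ± 0.525 CPM in GFP libraries. Fa2h, which hydroxylates the fatty acids of myelin lipids, averaged 7.94 ± 2.73 CPM in Kmt5b shRNA libraries and 10.8 ± 0.753 CPM in GFP libraries. Enpp6, a choline phosphodiesterase of newly forming oligodendrocytes, averaged 7.18 ± 2.75 CPM in Kmt5b shRNA libraries and 9.62 ± 1.00 CPM in GFP libraries (SD, n = 3 each). Ugt8a, Gal3st1, Fa2h and Enpp6 overlapped between the groups.

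Of the transcription factors (7 genes), Olig2 rose. Olig1 and Nkx2-2 had fold changes above 0 that did not pass, while Sox10, Myrf, Nkx6-2 and St18 had fold changes below 0 that did not pass. Olig2, the basic helix-loop-helix factor that specifies the lineage, at chromosome 16, 91225457 to 91228677 (GRCm38), stood at 12.3, 12.7 and 15.1 CPM in Kmt5b shRNA libraries and at 10.1, 9.30 and 8.12 CPM in GFP libraries. Every Kmt5b shRNA library lay above every GFP library. The fold was 1.455 (95% interval 1.184 to 1.786; log2 fold change 0.54 ± 0.14, edgeR adjusted p = 0.0211). The Olig2 call was lost without Kmt5b shRNA replicate 3 (adjusted p = 0.118), GFP replicate 2 (0.0514) or GFP replicate 3 (0.114), and among genes sharing no sequence (0.0840, with a log2 fold change of 0.54). Olig1, its neighbour on the chromosome, stood at 36.0, 36.4 and 44.7 CPM in Kmt5b shRNA libraries and at 36.2, 32.4 and 29.4 CPM in GFP libraries, with overlap between Kmt5b shRNA replicate 1 and GFP replicate 1 (log2 fold change 0.26 ± 0.12, edgeR adjusted p = 0.262). Sox10 stood at 14.4, 16.2 and 22.2 CPM in Kmt5b shRNA libraries and at 19.5, 18.0 and 15.6 CPM in GFP libraries. Its log2 fold change was -0.01 ± 0.15, with an interval of -0.34 to 0.32.

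Myrf, which binds the CTGGCAC motif shown in the Mag and Cnp sequences, stood at 7.22, 10.6 and 16.7 CPM in Kmt5b shRNA libraries and at 12.9, 11.1 and 16.7 CPM in GFP libraries, with overlap. St18, a zinc finger factor, stood at 3.87, 5.81 and 6.16 CPM in Kmt5b shRNA libraries and at 8.25, 7.13 and 6.79 CPM in GFP libraries, without overlap (edgeR adjusted p = 0.179). The homeobox factors were low. Nkx6-2 averaged 2.98 ± 0.941 CPM in Kmt5b shRNA libraries and 3.33 ± 0.728 CPM in GFP libraries, and Nkx2-2 averaged 1.24 ± 0.144 CPM in Kmt5b shRNA libraries and 0.993 ± 0.168 CPM in GFP libraries (SD, n = 3 each).

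None of the signalling, cytoskeletal and other proteins (7 genes) passed the test, and all 7 fold changes lay below 0, with a median of -0.34 on the log2 scale. Gpr37, a G protein-coupled receptor of mature oligodendrocytes, stood at 23.6, 34.3 and 37.0 CPM in Kmt5b shRNA libraries and at 49.4, 41.9 and 41.0 CPM in GFP libraries, without overlap (log2 fold change -0.48 ± 0.15, edgeR adjusted p = 0.0733). Ppp1r14a, an inhibitor of protein phosphatase 1, averaged 3.11 ± 1.05 CPM in Kmt5b shRNA libraries and 4.70 ± 0.455 CPM in GFP libraries. Gsn, the actin-severing protein gelsolin, averaged 65.0 ± 15.5 CPM in Kmt5b shRNA libraries and 74.3 ± 13.1 CPM in GFP libraries. Trf, the iron carrier transferrin, averaged 9.55 ± 4.44 CPM in Kmt5b shRNA libraries and 12.9 ± 0.991 CPM in GFP libraries, a value that is uncertain because 2108 of its 3320 exonic bases also belong to a read-through gene on the same strand. Plekhh1 averaged 22.6 ± 4.92 CPM in Kmt5b shRNA libraries and 28.5 ± 1.80 CPM in GFP libraries, Tmem125 averaged 4.84 ± 2.15 CPM in Kmt5b shRNA libraries and 5.59 ± 0.361 CPM in GFP libraries, and Evi2a averaged 10.2 ± 2.35 CPM in Kmt5b shRNA libraries and 10.9 ± 1.35 CPM in GFP libraries (SD, n = 3 each). Exons of Evi2a share 442 bases with Evi2 on the same strand, and those of Plekhh1 share 992 bases with Pigh on the opposite strand; the strand setting of the counting was not given in the sources used here, so both are uncertain. Exons of Mobp, Cnp, Ermn, Olig1, Nkx6-2, Nkx2-2, Tspan2 and Enpp2 overlap other genes by 79 to 345 bases, which leaves the same doubt over a smaller part of each.

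Per kilobase of exon, the level ranged over the 33 genes from Mbp, at a mean of 111.0 CPM per kilobase in Kmt5b shRNA libraries and 147.0 in GFP libraries, to Nkx2-2, at 0.432 CPM per kilobase in Kmt5b shRNA libraries and 0.345 in GFP libraries. Mobp followed Mbp, at 49.1 CPM per kilobase in Kmt5b shRNA libraries and 69.1 in GFP libraries, then Cnp at 51.7 in Kmt5b shRNA libraries and 68.3 in GFP libraries. The GFP libraries of Mobp and Cnp interleaved on this scale, so these neighbours do not differ beyond their spread, while every GFP library of Mbp lay above every GFP library of either.

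The spread between libraries was wider in the Kmt5b shRNA group for these genes. The highest Kmt5b shRNA library exceeded the lowest by 1.06-fold to 2.49-fold, with a median of 1.80-fold, and by more than 1.5-fold in 26 of 33 genes. In the GFP group the same ratio ran from 1.11-fold to 1.88-fold, with a median of 1.29-fold, and exceeded 1.5-fold in 6 of 33. The median within-group SD on the log2 scale was 0.44 in Kmt5b shRNA and 0.18 in GFP libraries for the 33 genes, while over all genes it was 0.15 in Kmt5b shRNA and 0.17 in GFP libraries. For Olig1, Olig2, Sox10 and Nkx2-2 alone this median was 0.16 in Kmt5b shRNA and 0.15 in GFP libraries. Kmt5b shRNA replicate 1 was the lowest of its 3 libraries for 31 of 33 genes (93.9%, against 28.9% of all genes), and replicate 3 was the highest of its 3 for 30 (90.9%, against 36.1%). GFP replicate 1 was the highest of the GFP libraries for 25 of 33 (75.8%, against 35.8%) and GFP replicate 2 the lowest for 21 (63.6%, against 33.5%). Some such orders were also seen in markers of other cells. GFP replicate 1 was the highest GFP library for 9 of 12 neuron markers (75%) and the lowest for all 12 microglia markers. Kmt5b shRNA replicate 3 was the highest of its 3 for 11 of 12 microglia markers (91.7%). Kmt5b shRNA replicate 1 was the lowest of its 3 for 5 of 12 microglia markers, 1 of 12 astrocyte markers and 0 of 12 neuron markers.

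As a share of the GFP mean, the median gene stood at 52.3% in Kmt5b shRNA replicate 1 (range 37.7% to 133.6%), at 81.7% in replicate 2 (55.3% to 138.0%) and at 98.9% in replicate 3 (74.1% to 164.4%). Replicate 3 thus had 17 genes below the GFP mean and 16 at or above it, while replicate 1 had 30 below. The summed CPM of the 33 genes was 1781, 2799 and 3238 in Kmt5b shRNA libraries and 4036, 2850.2 and 3134 in GFP libraries, so the highest Kmt5b shRNA library exceeded GFP replicates 2 and 3. The median log2 fold change became -0.16 when Kmt5b shRNA replicate 1 was left out, -0.56 when Kmt5b shRNA replicate 3 was left out and -0.27 when GFP replicate 1 was left out. Leaving out Kmt5b shRNA replicate 3 gave 9 genes lower (Mog, Gpr37, Gjb1, Fa2h, Enpp6, Trf, Ppp1r14a, Plekhh1 and Plxnb3), where 5.42% of all genes, and 1.54% of those other than processed pseudogenes, were lower. Leaving out Kmt5b shRNA replicate 1 gave 0 genes lower, where 4.87% of all genes, and 1.16% of those other than processed pseudogenes, were lower. Of other settings, keeping every row with a count gave 6 lower (4.94% of all genes) and DESeq2 gave 3 (6.3%). Among genes sharing no sequence, 0 of the 29 present were higher (0.874% of all genes) and 0 were lower (0.429%).

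**Figure D3:**
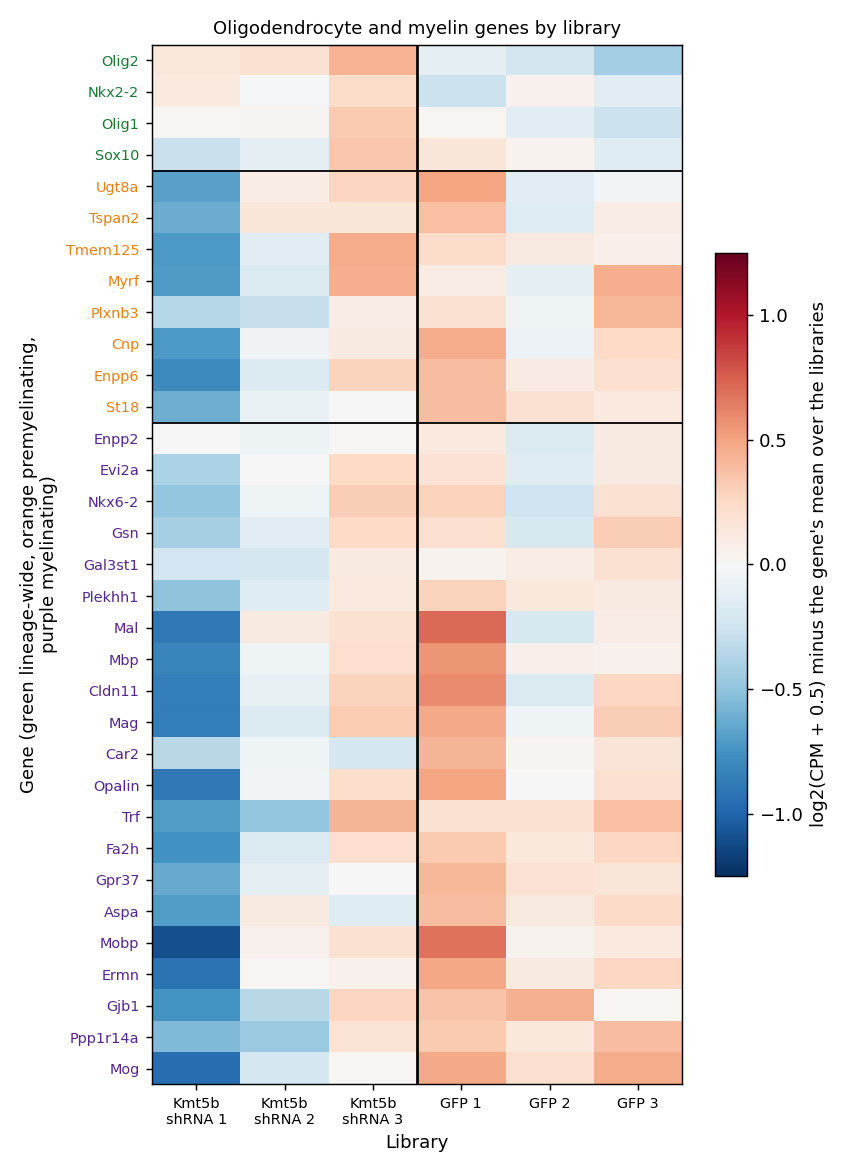
Level of each gene (rows, by stage of maturation) in each library (columns, Kmt5b shRNA left and GFP right) as log2(CPM + 0.5) minus the gene's mean over the 6 libraries, red above and blue below. The column of Kmt5b shRNA replicate 1 is blue for nearly all premyelinating and mature genes, and it is the lowest library for 29 of the 33 genes.

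The genes were split by the stage at which they are best known, from general knowledge. Of 21 myelinating and mature genes none had a fold change above 0, with a median log2 fold change of -0.42. Of 8 premyelinating or newly formed genes (Cnp, Ugt8a, Myrf, Tspan2, Enpp6, Tmem125, St18 and Plxnb3) none was above 0 either, with a median of -0.31. Of the 4 lineage-wide genes (Olig1, Olig2, Sox10 and Nkx2-2), 3 were above 0, with a median of 0.30. The summed CPM of these 4 was 63.9, 66.3 and 83.4 in Kmt5b shRNA libraries and 66.7, 60.9 and 54.1 in GFP libraries. In this sum, to which Olig1 gave the most, Kmt5b shRNA replicate 1, lowest for the mature genes, lay within the GFP range. By gene, replicate 1 was still the lowest of the 3 Kmt5b shRNA libraries for 3 of the 4. It was the lowest of all 6 libraries for Sox10. When Kmt5b shRNA replicate 1 was left out, the medians were -0.18 for mature, -0.08 for premyelinating and 0.33 for lineage-wide genes. When Kmt5b shRNA replicate 3 was left out, they were -0.63, -0.58 and 0.21 in that order. The difference between the stages was not tested, since the genes were chosen with results known.

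Further genes of the lineage were read from lists that do not overlap the 33. Of 20 precursor and newly formed oligodendrocyte genes, 1 rose and 1 fell (5% each, against 2.77% of all genes higher and 5.69% lower), with a median log2 fold change of 0.05. Cacng4, an auxiliary subunit of AMPA receptors, rose to 16.6 ± 0.048 CPM in Kmt5b shRNA libraries, against 10.96 ± 1.68 CPM in GFP libraries (n = 3 each, ± SD; edgeR adjusted p = 0.00714). Tns3, a tensin of newly formed cells, fell to 55.1 ± 2.60 CPM in Kmt5b shRNA libraries, against 72.4 ± 3.06 CPM in GFP libraries (edgeR adjusted p = 0.0111). Of 20 further mature oligodendrocyte genes, 2 fell (10%, against 5.69% of all genes), none rose, and 18 lay below 0 (90%, against 52.7%), with a median of -0.28. Cntn2, an axonal and glial adhesion molecule, fell to 83.3 ± 9.08 CPM in Kmt5b shRNA libraries, against 117 ± 2.81 CPM in GFP libraries (edgeR adjusted p = 0.00432). Cmtm5 fell to 17.2 ± 1.55 CPM in Kmt5b shRNA libraries, against 23.0 ± 2.15 CPM in GFP libraries (edgeR adjusted p = 0.0330). The median level of these 20 mature genes, as log2(CPM + 0.5) minus each gene's mean, was lowest in Kmt5b shRNA replicate 1. It was -0.33 there, against -0.68 for the 33 genes. Their median within-group SD on the log2 scale was 0.20 in Kmt5b shRNA and 0.20 in GFP libraries. The wider spread of the 33 genes in the Kmt5b shRNA group was thus not seen in the median of this list. The low position of Kmt5b shRNA replicate 1 was seen in both. It was the lowest of the 6 libraries for 15 of these 20 genes (75%, against 13.95% of all genes).

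Of 18 tested inhibitors and regulators of oligodendrocyte differentiation, 2 rose (11.1%, against 2.77% of all genes) and 1 fell (5.56%, against 5.69%), with a median of 0.06. Lingo1, a membrane protein known to restrain differentiation, rose to 288 ± 35.7 CPM in Kmt5b shRNA libraries, against 204 ± 14.6 CPM in GFP libraries (edgeR adjusted p = 0.00745). Hdac1, a histone deacetylase, rose to 13.5 ± 0.637 CPM in Kmt5b shRNA libraries, against 7.41 ± 0.231 CPM in GFP libraries (edgeR adjusted p = 0.000177), but it shares sequence with other genes or pseudogenes and its value is uncertain. Sox8, a relative of Sox10, fell to 28.7 ± 3.26 CPM in Kmt5b shRNA libraries, against 42.4 ± 6.49 CPM in GFP libraries (edgeR adjusted p = 0.00690). The calls of Cntn2, Lingo1 and Sox8 were lost without Kmt5b shRNA replicate 1 (adjusted p of 0.0579, 0.0772 and 0.0654 in that order). Those of Tns3 and Cmtm5 were lost without that library as well, Tns3 also without GFP replicate 3, and Cmtm5 also without Kmt5b shRNA replicate 3, without GFP replicate 1 or 2 and among genes sharing no sequence.

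Markers of other cells were read beside these genes, and their part in the results was not tested. Of 12 astrocyte markers 4 fell, namely Aqp4, Gja1, Gjb6 and Slc4a4. This is 33.3%, against 5.69% of all genes and 1.69% of those other than processed pseudogenes. The list was mixed, with 9 of the 12 below 0 (75%, against 52.7% of all genes). The other 3 lay above 0, at up to 0.39, and the median log2 fold change was -0.17. Aqp4, the astrocyte water channel, fell to 117 ± 11.7 CPM in Kmt5b shRNA libraries, against 182 ± 27.3 CPM in GFP libraries (edgeR adjusted p = 0.00178). The calls of Gja1, Gjb6 and Slc4a4 were lost with some libraries left out, and that of Aqp4 was not. Over all alternatives, the highest adjusted p was 0.0614 for Gja1, 0.151 for Gjb6 and 0.147 for Slc4a4. Among genes sharing no sequence the calls of Gjb6 and Slc4a4 were lost as well, and Gja1 was not in that fit, so its value is uncertain. The lowest median level of the astrocyte markers was in Kmt5b shRNA replicate 3, not replicate 1. Of 12 neuron markers 1 fell (8.33%, against 5.69% of all genes), the neurofilament gene Nefm, at 72.8 ± 1.46 CPM in Kmt5b shRNA libraries and 109.9 ± 20.1 CPM in GFP libraries (edgeR adjusted p = 0.00329), with a list median of -0.07. Nefm shares sequence with at least 1 other gene or pseudogene and was left out of that fit, so its value is uncertain. None of 12 microglia markers (median -0.02; smallest p for Itgam and Ctss), 12 endothelial and mural markers (0.03; Ly6c1 and Cldn5) or 8 fibroblast and meningeal markers (-0.16; Dcn and Col3a1) passed. Of 9 tested striatal markers 1 rose (11.1%, against 2.77% of all genes), the phosphodiesterase Pde10a. It stood at 116 ± 9.57 CPM in Kmt5b shRNA libraries and 85.4 ± 6.91 CPM in GFP libraries (edgeR adjusted p = 0.0104). The list median was -0.10, with 6 of the 9 below 0 (66.7%, against 52.7% of all genes). The Pde10a call was lost without Kmt5b shRNA replicate 1 or without GFP replicate 3 (highest adjusted p = 0.0685).

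Of 6 tested choroid plexus markers none passed, with a median of -0.50. The summed level of all 10 listed markers, tested or not, was 5.49 to 7.17 CPM in Kmt5b shRNA libraries and 5.96 to 9.40 CPM in GFP libraries. Ttr, the defining transcript of choroid plexus, stood at 0.176, 0 and 0.0911 CPM in Kmt5b shRNA libraries and at 0.209, 0.390 and 1.18 CPM in GFP libraries, while Enpp2 stood above 230 CPM in all 6. Ttr and Aqp1 had the smallest p on this list, with log2 fold changes of -2.69 and -0.98 (edgeR adjusted p = 0.0750 and 0.0981). Both were lower without overlap (33.3% of those tested, against 12.7% of all genes), at low counts. Of 5 tested Schwann cell markers none passed (median 0.34; smallest p for Pmp22 and Pou3f1).

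**Figure D4:**
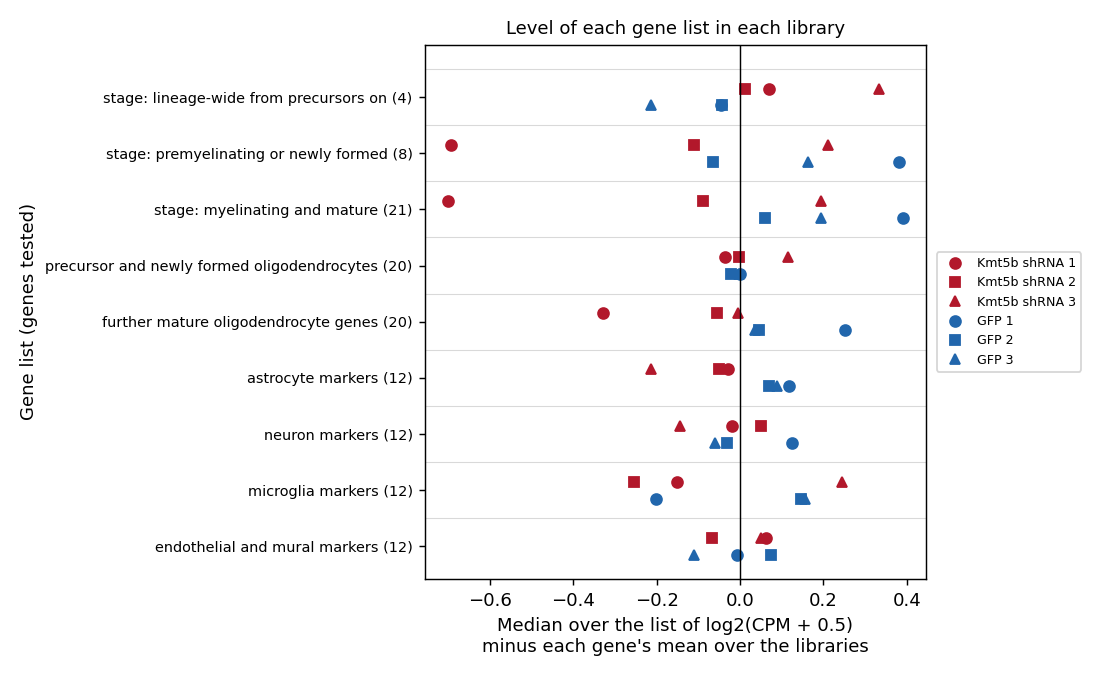
Median over each gene list (rows, with the number of genes tested) of log2(CPM + 0.5) minus each gene's mean over the 6 libraries, with Kmt5b shRNA in red above GFP in blue and replicates 1 to 3 as circle, square and triangle. Kmt5b shRNA replicate 1 lies at -0.70 for mature and -0.69 for premyelinating genes, against -0.03 for astrocyte and -0.02 for neuron markers.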

How the data were processed

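Bulk RNA of mouse prefrontal cortex was measured in 6 libraries, grouped by their titles. The authors deposited raw read counts per gene symbol. The labels' protocols describe strand-specific libraries depleted of ribosomal RNA, with Cutadapt for trimming and TopHat2 as the aligner to RefSeq transcripts. The submitters' processing notes instead list the aligner STAR, with featureCounts, DESeq2 and build mm10. Standard errors include both counting error and the variation among libraries.

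Counts were filtered with filterByExpr, scaled by TMM and tested with edgeR 4.0.16 (robust quasi-likelihood fit, R 4.3.3), with Benjamini-Hochberg adjustment over 24419 genes and 95% intervals. CPM uses TMM library sizes. Levels by library add 0.5 CPM before the log. Alternatives were RLE and upper-quartile scaling, 2 other filters, DESeq2 1.42.0, limma-voom (limma 3.58.1), a replicate block, fits without ribosomal and mitochondrial rows or without each library, and a fit of 12363 protein-coding genes sharing no sequence, found with BLAST+ 2.17.0 (no match of at least 200 bases, or of at least 50% of the gene, at 90% identity). The tests were checked on simulated counts. Positions come from GENCODE M21 (GRCm38), and promoters from RefSeq.

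The 33 genes, their stages and the further lists were chosen with earlier results of these data known. Named genes are all 33, Kmt5b, and from each further list the genes that passed or, where none did, up to 2 of smallest p. Ttr is named by this rule and as a defining marker.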

Additional observations from a re-analysis of the deposited data

How the results depend on the processing

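Among the 33 genes, the count called lower was 1, and it was 6 with every row above 0 kept, 3 by DESeq2, 0 with the replicate block (Car2 adjusted p = 0.0634; 6.17% of all genes lower) and 0 among genes sharing no sequence. Leaving out 1 library at a time gave 0 to 9. The count called higher was 1, 0 among genes sharing no sequence, and 0 to 1 with a library left out. The median log2 fold change ran from -0.56 to -0.16 with a library left out. Over the whole table, 676 genes were higher and 1390 lower, against 108 higher and 53 lower among 12363 genes sharing no sequence, which are fewer genes tested; the cause of the other changes was not tested. Over 15 alternatives (14 for the 4 genes that share sequence), 25 of the 33 genes kept their sign and 20 never passed the threshold. The other 8, none of them called, changed sign when a library was left out, with log2 fold changes of -0.38 to 0.049 for Ugt8a, -0.21 to 0.12 for Sox10, -0.13 to 0.0032 for Enpp2, -0.61 to 0.0049 for Myrf, -0.42 to 0.042 for Nkx6-2, -0.31 to 0.029 for Tspan2, -0.59 to 0.063 for Tmem125 and -0.25 to 0.073 for Evi2a. Olig2 passed in 11 and Car2 in 9 of the 15.

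The replicate numbers were not taken as pairs: the deviations of same-numbered libraries correlated at -0.063, -0.088 and 0.373 over 17299 genes, and GFP replicate 1 correlated best with Kmt5b shRNA replicate 2, at 0.413. With the replicate block, 704 genes were higher and 1507 lower over the whole table, and Olig2 remained called (adjusted p = 0.0385).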

Other observations

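Klk6, a secreted protease of mature oligodendrocytes on the list of further mature genes, was singled out after its values were seen. It stood at 0.756, 1.64 and 7.66 CPM in Kmt5b shRNA libraries and at 1.73, 1.30 and 11.1 CPM in GFP libraries. Replicate 3 of each group was thus far above the other libraries, and the groups overlapped.

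Reads of sheath genes per read of Olig2 were also computed after the values were seen. There were 48.2, 79.7 and 80.7 reads of Mbp per Olig2 read in Kmt5b shRNA libraries and 152.7, 117.8 and 134.7 in GFP libraries, without overlap. Olig2 was itself called higher (log2 fold change 0.54), and Mbp stood at -0.41. The choice of Olig2 as denominator thus set this separation in part, and the ratio adds no separate result. The other denominators stood at -0.01 for Sox10 and 0.26 for Olig1. The share of other gene pairs without overlap was not computed. Against Sox10 the ratio was 41.2, 62.5 and 54.7 in Kmt5b shRNA libraries and 79.3, 60.8 and 69.9 in GFP libraries, with overlap. Against Olig1 it was 16.4, 27.8 and 27.2 in Kmt5b shRNA libraries and 42.7, 33.8 and 37.2 in GFP libraries, without overlap.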
